A study of Elaeis guineensis with 12 samples.

Results

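The 100 gene models described here were higher in carpel than in staminodia in each of 5 clonal oil palms (Elaeis guineensis), whether the palm bore normal or mantled flowers. They were chosen by their measured values, out of 26087 gene models in all. Counts were scaled to CPM, counts per 1000000 assigned counts of that palm and organ, and 13142 models with a mean of at least 5 CPM over the 10 sums of palm and organ were kept. Of these, 419 that stood lowest in normal staminodia were left out, and 12723 were ranked. The score of a model was its smallest carpel minus staminodia difference, on the log2(CPM + 1) scale, among the 5 palms, and the 100 highest scores are the members. The direction of the organ difference is therefore the rule itself, and every organ difference below is a description. Counts of calls on this contrast are given as a description too, and nothing is read from them.

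Total RNA, depleted of rRNA, came from staminodia and carpel cut by laser from frozen sections of stage 3 florets of 3 mantled and 2 normal clonal palms. The labels do not say which libraries were read on which of the 2 instruments or at which read length. Each of the 4 groups (mantled or normal, staminodia or carpel) held 3 libraries, 12 in all. In the mantled groups the 3 libraries came from 3 palms. In the normal groups, replicates 1 and 2 both came from normal palm 1, where a single inflorescence was divided, and normal palm 2 gave replicate 3, so the palm was taken as the replicate and the libraries of 1 palm and organ were summed. Per-palm values are given in the order normal palm 1, normal palm 2, mantled palms 1, 2 and 3.

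In the oil palm the female flower carries a whorl of staminodia, rudimentary sterile stamens, around the carpels, which form the ovary and later the wall of the fruit around the seed. In the mantled variant, which arises in tissue culture, the staminodia grow into extra carpel-like organs called pseudocarpels, so the mantled staminodia sampled here are pseudocarpel initials. Organ identity in such whorls is set in flowering plants by combinations of MADS-box transcription factors, and the mantled phenotype has been tied to a change at one of these genes. Gene models that separate the carpel from the neighbouring whorl in both kinds of palm are those whose organ difference was still present in flowers with pseudocarpel initials.

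The files do not pair the IDs with gene names, and 0 of the IDs matched the 37671 genes of the reference table. Members are therefore given by ID, with no name, function or sequence, and the organ labels could not be checked against known carpel or stamen marker genes. At most 2 IDs per direction and comparison are named. Assigned counts ran from 2121145 to 8066978 per library, between 14712 and 19735 models had at least 1 read in a library, and the 10 models with most reads took 3.54% to 4.91% of each library's counts. CPM is not corrected for gene length, so levels are compared within a model and not between models. In captured tissue, fewer cells of a type and less RNA per cell cannot be told apart.

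Together the members took a small share of the RNA, and a larger share in carpel. Their summed counts made up 0.279%, 0.252%, 0.203%, 0.208% and 0.236% of all assigned counts in staminodia. In carpel the shares were 0.495%, 0.572%, 0.391%, 0.402% and 0.566%. The carpel share was thus 1.78, 2.27, 1.92, 1.93 and 2.39 times the staminodia share, and the lowest carpel share stood above the highest staminodia share. The carpel sum held 0.998, 1.09, 1.53, 3.15 and 0.533 times as many counts as the staminodia sum of the same palm. The part of depth in the shares was not tested.

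Most members differed between organs by a modest factor in their weakest palm. Scores ran from 0.39 to 1.56 with a median of 0.51, so the smallest within-palm factor was 1.31 for the last member, 1.42 at the median and 2.96 for the first. A score of at least 1 was reached by 6 members, of at least 0.8 by 15 and of at least 0.5 by 52. The last 3 members had scores of 0.396, 0.395 and 0.395, and the first 3 models outside the list had 0.390, 0.390 and 0.389. No gap in the scores separated members from the models below them. In all, 871 ranked models (6.85%) were higher in carpel in every palm, against 559 (4.39%) that were higher in staminodia in every palm. The 100 models ranked highest in the opposite direction, staminodia over carpel, had scores of 0.28 to 1.14 with a median of 0.38.

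**Figure D1:**
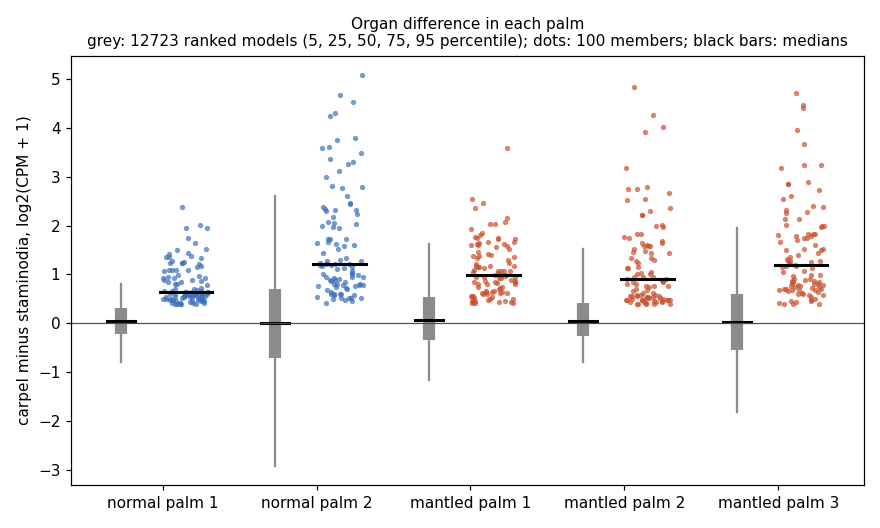
Carpel minus staminodia difference on the log2(CPM + 1) scale (y axis) in each palm (x axis). Coloured dots are the 100 members (blue normal, orange mantled), grey bars give the 5th, 25th, 75th and 95th percentiles of the 12723 ranked models, and black bars are medians. All members lie above 0 by the rule, with medians of 0.64 in normal palm 1 and 1.21 in normal palm 2, while the ranked models centre near 0.

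The size of the difference varied between palms of the same phenotype. The members' median difference was 0.64 in normal palm 1, 1.21 in normal palm 2, and 0.995, 0.90 and 1.19 in mantled palms 1, 2 and 3. Over all ranked models the medians were 0.05, 0.00, 0.07, 0.04 and 0.02. The 2 normal palms thus lay at both ends, with the 3 mantled palms between them. A difference of at least 1 was found for 27 members in normal palm 1, 61 in normal palm 2, and 49, 46 and 56 in the mantled palms. Normal palm 1 was the weakest palm, and so set the score, for 34 members, mantled palm 2 for 27, mantled palm 1 for 16, mantled palm 3 for 15 and normal palm 2 for 8. The spread of all ranked models also differed between palms: their interquartile range ran from -0.23 to 0.32 in normal palm 1 and from -0.72 to 0.70 in normal palm 2, whose sums held 7516856 and 2153546 counts in staminodia. Its part in the order of the palms was not tested.

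**Figure D2:**
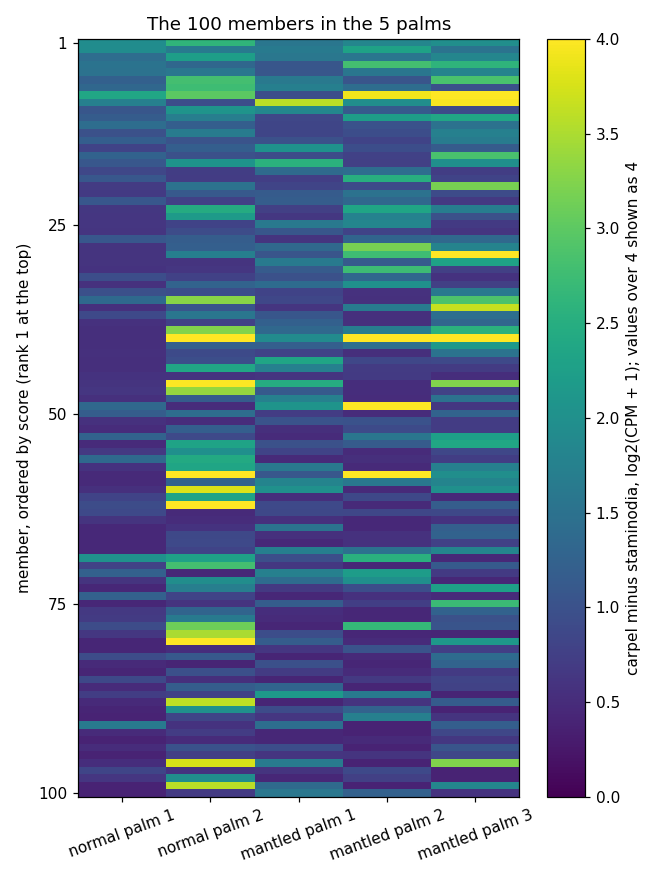
Carpel minus staminodia difference on the log2(CPM + 1) scale (colour) of the 100 members (rows, ordered by score from rank 1 at the top) in the 5 palms (columns). Differences over 4 are shown as 4. Large differences sit in normal palm 2 and in mantled palms 2 and 3, and a member that is far apart in one palm is often modest in another.

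The member of highest score, p5_sc00059_cds_180, had 7 features and stood at 6.39, 1.39, 15.7, 5.08 and 4.02 CPM in staminodia. In carpel it stood at 27.5, 13.6, 48.4, 20.7 and 18.9 CPM. Its differences of 1.95, 2.61, 1.56, 1.84 and 1.98 were of like size in all palms, although its staminodia values rest on 48, 3, 47, 13 and 16 reads. The member at rank 2, p5_sc01260_cds_3, was at 22.5, 30.6, 16.4, 14.8 and 26.6 CPM in staminodia and at 89.2, 97.0, 53.6, 77.2 and 78.3 CPM in carpel. Every carpel value of this model exceeded every staminodia value. Its differences were 1.94, 1.63, 1.65, 2.30 and 1.52.

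Such a separation across all palms was found for 25 of the 100 members, whose 5 carpel sums lay above all 5 staminodia sums. Among all ranked models 0.55% showed it, a share that the rule itself raises among the members. For the remaining members the organs overlapped between palms, and only the comparison within a palm set them apart. The highest carpel sum of a member was 3.03 times its lowest at the median, and 81 of 100 members reached a factor of 2 or more, against a median of 2.48 and 68.2% over the ranked models. The carpel sums themselves thus differed, for members and for ranked models. All palms but normal palm 1 gave a single library per organ, so palm and library cannot be told apart there.

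The 2 members of highest mean carpel level differed by less than 1 in every palm. The largest mean carpel level was that of p5_sc00057_cds_322, at 455, 459, 346, 387 and 418 CPM in carpel and 323, 279, 253, 293 and 232 CPM in staminodia. Its differences were 0.49, 0.72, 0.45, 0.40 and 0.85, and the lowest carpel value lay above the highest staminodia value. Next came maker-p5_sc00001-snap-gene-135.86-mRNA-1:cds, at 211, 265, 213, 275 and 289 CPM in carpel and 116, 182, 159, 174 and 163 CPM in staminodia. This model also kept its organs apart over all palms, with differences of 0.86, 0.54, 0.42, 0.66 and 0.82.

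The named members with the largest mean differences had few reads in the staminodia of 1 palm or more. In normal palms the largest mean was that of p5_sc00039_cds_92, at 3.00, which came mostly from 1 palm. This model stood at 15.8 CPM in staminodia and 30.9 CPM in carpel of normal palm 1, and at 0.464 CPM (1 read) and 48.5 CPM (114 reads) in normal palm 2. In the mantled palms it was at 11.0, 10.5 and 16.1 CPM in staminodia and 21.2, 15 and 37.7 CPM in carpel, with differences of 0.89, 0.47 and 1.18. The second largest, p5_sc01636_cds_4, differed by 2.37 and 2.99 in the normal palms. It was at 1.33, 1.86, 1.67, 0 and 0.251 CPM in staminodia (10, 4, 5, 0 and 1 reads) and at 11.1, 21.7, 4.16, 14 and 26.9 CPM in carpel, where every value exceeded those of staminodia.

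In mantled palms the largest mean difference, 3.56, belonged to p5_sc00012_cds_152. In staminodia it stood at 1.67, 0 and 0.502 CPM in mantled palms 1, 2 and 3 (5, 0 and 2 reads), and in carpel at 9.19, 15.1 and 38.7 CPM. In normal palms its staminodia were unlike each other, at 17.6 CPM in palm 1 and 0.464 CPM in palm 2, against 26.0 and 36.6 CPM in carpel. Second came p5_sc00332_cds_16, at 3.18, with 0.334, 4.30 and 0 CPM in mantled staminodia and 15.1, 19.8 and 14.6 CPM in mantled carpel. In normal palms this model was at 0.931 and 3.71 CPM in staminodia and 5.47 and 8.09 CPM in carpel.

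Low counts were common on the staminodia side. At least 1 staminodia sum without any read was found in 20 members. In carpel 0 members had a sum without reads, which the rule itself excludes. Fewer than 10 reads in staminodia were found for 2, 31, 22, 28 and 16 members in the 5 palms, and in carpel for 0, 3, 1, 1 and 3. The rule favours such an imbalance between organs, and the shares among ranked models were not counted. All 10 sums held 10 reads or more in 52 members. For the members with few reads the log2(CPM + 1) scale understates the difference, and their scores carry the larger counting error. The mean over the 10 sums had a median of 17.8 CPM over the members and 25.5 CPM over the ranked models.

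**Figure D3:**
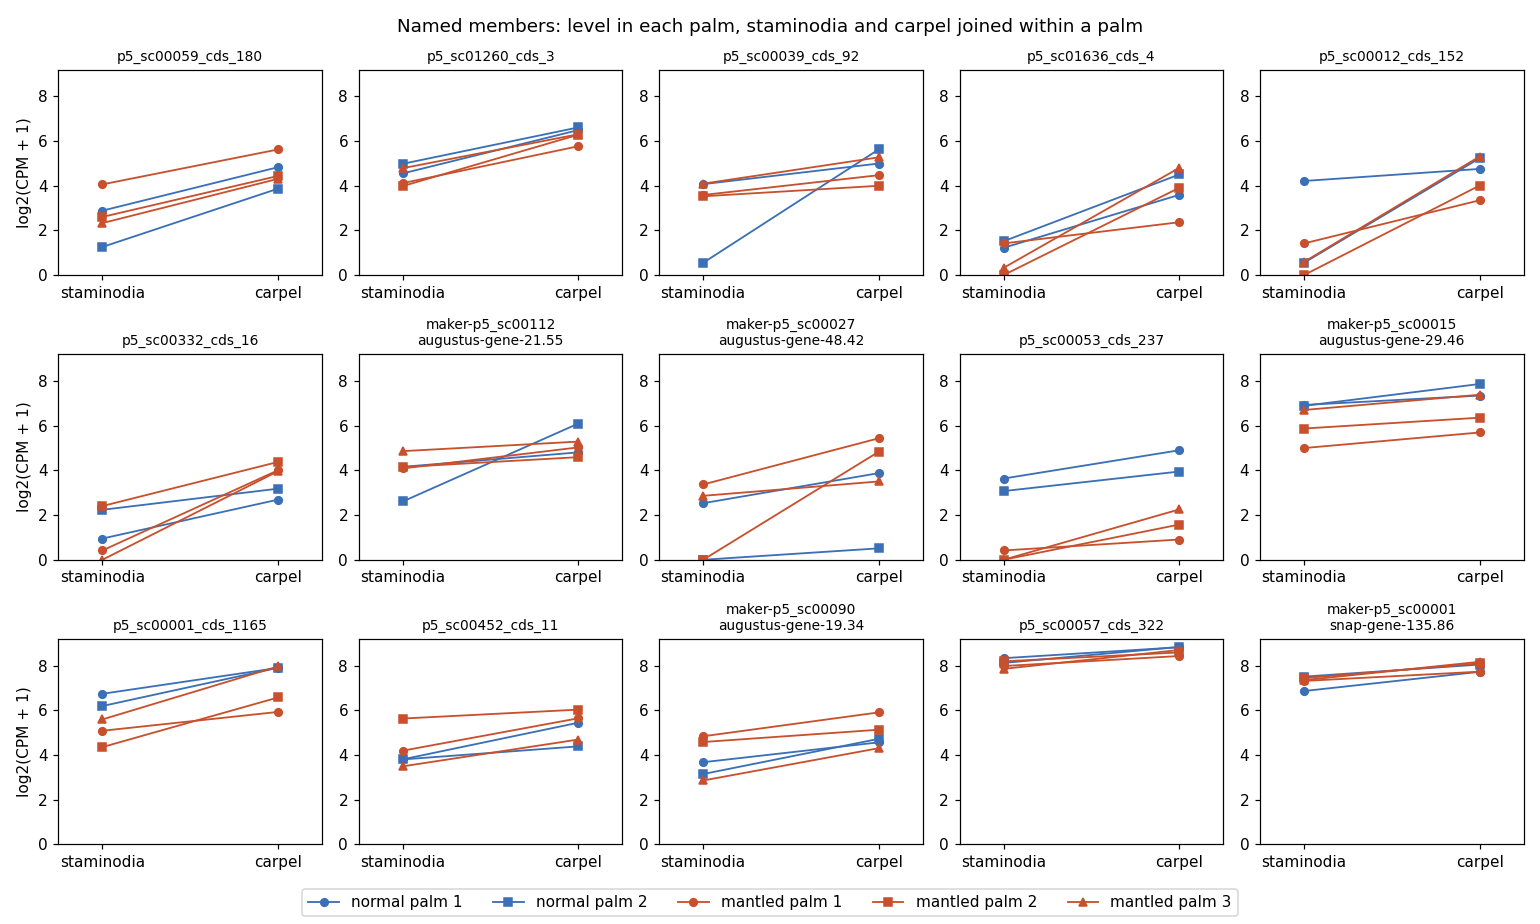
Level on the log2(CPM + 1) scale (y axis) of the 15 named members in staminodia and carpel (x axis), with a line for each palm (blue normal, orange mantled). Every line climbs from staminodia to carpel, by the rule, while the lines of p5_sc00053_cds_237 fall into a higher pair of normal and a lower trio of mantled palms.

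The 2 parts of the inflorescence of normal palm 1 gave a view inside 1 palm, although the rule used their sum. Both carpel libraries exceeded both staminodia libraries in 76 of 100 members, against 22.2% of the ranked models. By single pairs of libraries, carpel was higher in 89 to 97 members. The numbers 1 and 2 are not stated to tie a carpel library to a staminodia library, so all 4 pairs were compared. Because the sum of these libraries chose the members, the 76 and the counts by single pairs are a description. For single pairs the share over the ranked models was not counted.

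A reading that the choice did not use comes from leaving out 1 palm, choosing 100 models by the same rule on the other 4 palms and looking at the palm left out. This reading was added after the data had been seen. Of the models so chosen, 70 were higher in carpel in normal palm 1, against 55.3% of all models ranked on the other palms. In normal palm 2 there were 71, against 49.8%. Mantled palms 1, 2 and 3 gave 69 (against 54.6%), 72 (against 53.7%) and 71 (against 51%). The median difference in the palm left out was 0.33, 0.62, 0.37, 0.47 and 0.57, lower than the members' own medians in every palm, and the medians of all models ranked were 0.05, 0.00, 0.07, 0.04 and 0.02. A carpel excess thus appeared in the unused palm for 69 to 72 of 100 models, and for the rest it did not. The 5 lists shared 43, 55, 48, 53 and 55 models with the members.

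**Figure D4:**
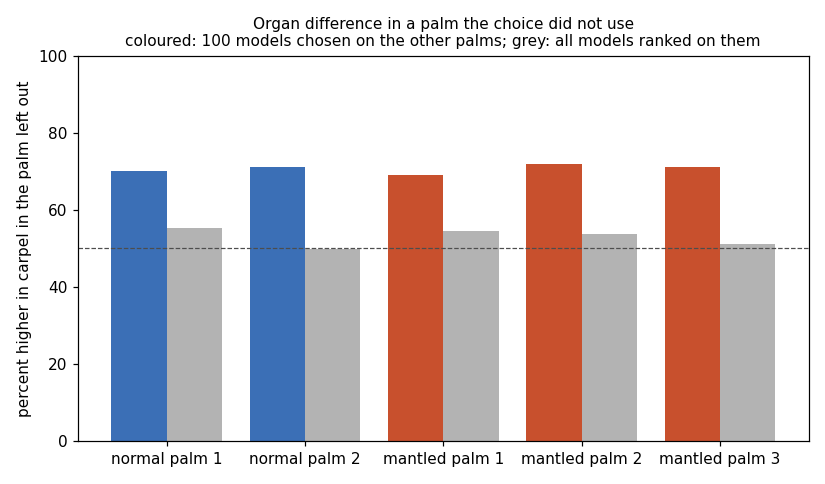
Percent of models higher in carpel (y axis, from 0) in each palm (x axis) when that palm took no part in the choice. Coloured bars are the 100 models chosen on the other 4 palms (blue normal, orange mantled), grey bars all models ranked on them, and the dashed line marks 50%. The coloured bars stand at 69% to 72% and the grey bars at 49.8% to 55.3%.

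Fitted over all 16800 models tested, with palm as a block since both organs came from the same palms, edgeR's quasi-likelihood test called 11 of the 100 members at an adjusted p of 0.05, all higher in carpel. The background was 0.0774% of tested models called higher in carpel, 13 models in all, and nothing is read from the comparison because the rule used this contrast. The called members had mean carpel levels of 79.1 to 190 CPM, against a median of 24.5 CPM over all members. Without mantled replicate 1, 2 or 3 the members called were 3 of 5, 5 of 6 and 2 of 2 models called higher in carpel. With no replicate block they were both of the 2 such models, with DESeq2 19 of 62, and without a filter on low counts 21 of 75.

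The organ difference was then set side by side in normal and mantled palms. The members' mean difference had a median of 1.09 in normal palms and 1.19 in mantled palms. It was larger in normal palms in 46 members and larger in mantled palms in 54, against 46% larger in normal palms over the ranked models. Both normal palms lay above all mantled palms in 2 members (8.03% of ranked models), and all mantled palms lay above both normal palms in 9 members (10.5%). The count for normal palms lay below the background and that for mantled palms near it. The rule demanded a difference in every palm, so models whose difference was lost in mantled palms could not become members. Models lowest in normal staminodia had also been left out. The comparison therefore cannot decide whether pseudocarpel initials stood closer to the carpel, and no conclusion is drawn from it.

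The largest excess in normal palms was that of p5_sc00039_cds_92, already described, with a mean difference of 3.00 in normal and 0.85 in mantled palms, set by normal palm 2. It was followed by maker-p5_sc00112-augustus-gene-21.55-mRNA-1:cds, at 2.07 and 0.60. This model was at 16.9, 5.11, 16, 16.8 and 28.1 CPM in staminodia and at 27.1, 67.7, 31.7, 23.2 and 38.2 CPM in carpel, so that normal palm 2 had both the lowest staminodia and the highest carpel value. In the reverse direction, p5_sc00332_cds_16 had means of 1.35 in normal and 3.18 in mantled palms. For maker-p5_sc00027-augustus-gene-48.42-mRNA-1:cds they were 0.93 and 2.52. The latter stood at 4.79, 0, 9.35, 0 and 6.28 CPM in staminodia and at 13.7, 0.426, 42.5, 27.6 and 10.4 CPM in carpel, with 1 read in the carpel of normal palm 2.

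Against the level of the normal carpel, mantled staminodia were low for most members. The highest of the 3 mantled staminodia sums was below the lower of the 2 normal carpel sums in 71 of 100 members, against 10% of the ranked models. The members' median level was taken separately in each palm and organ. It was 10.2, 10.2 and 11.3 CPM in the 3 mantled staminodia and 12.1 and 9.29 CPM in the normal staminodia. In the normal carpel it was 21.3 and 27.2 CPM. By these medians the pseudocarpel initials lay in the range of normal staminodia. The rule fixed the order of organs within a palm and thereby favours this pattern. It also left out models lowest in normal staminodia, so nothing is concluded about pseudocarpel initials.

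The phenotype contrast within carpel was not itself part of the rule. It was tested over all 16191 models of that fit, in 3 mantled against 2 normal palms. The rule did use the carpel values, in the score and in leaving out models lowest in normal staminodia. Whether this shifts the members' contrast was not tested. All 100 members were tested, and edgeR called 0 of them, as it called 0% of all models. An unadjusted p under 0.05 was found for 2 members, both lower in mantled carpel (background 1.77% lower and 1.98% higher), and DESeq2 called 0 members. The fitted log2 difference, mantled over normal, had a median of -0.23 over the members against 0.07 over all models. It was below 0 in 65 of 100 members against 45.0% of all models. On mean CPM, 62 members were lower in mantled carpel, against 44% of ranked models.

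Mantled palms did not share this shift evenly. Relative to the mean of the normal palms, 63 members were lower in the carpel of mantled palm 1 (median -0.27 on the log2(CPM + 1) scale), 71 in mantled palm 2 (-0.36) and 46 in mantled palm 3 (0.07). Among ranked models the shares lower were 44.2%, 42.6% and 44.6%. The normal palms differed by as much between themselves, with a members' median of -0.38 for palm 1 minus palm 2 in carpel and 0.36 in staminodia. Without mantled replicate 3 the median fitted difference was -0.44, and without normal replicate 3 it was -0.10. All mantled carpels lay below both normal carpels in 9 members (8.28% of ranked models) and above them in 4 (12.7%).

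The member with the smallest p in carpel was p5_sc00053_cds_237, with 1 feature and lower values in every mantled palm. It stood at 28.9 and 14.5 CPM in normal carpel and 0.876, 1.98 and 3.77 CPM in mantled carpel. In staminodia it stood at 11.4 and 7.43 CPM in normal palms and at 0.334, 0 and 0 CPM in mantled palms, which is 1 read in 9533437. Normal and mantled palms did not overlap in either organ. The fitted log2 difference in carpel was -3.40 (SE 0.886, adjusted p = 0.996 in edgeR). Over summed reads, 251 in normal and 28 in mantled carpel, the normal level was 13.4 times the mantled level (exact 95% interval 9.07 to 20.6), and in staminodia, with 102 reads and 1 read, 101 times (17.6 to 4010). These intervals cover counting error only and not the spread between palms. Within normal palm 1 the libraries stood at 16.3 and 37.7 CPM in carpel and 12.1 and 10.6 CPM in staminodia.

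Next by p was maker-p5_sc00015-augustus-gene-29.46-mRNA-1:cds, also with lower values in mantled carpel, at 51.0, 81.3 and 167 CPM against 162 and 233 CPM. Mantled palm 3 reached into the range of the normal palms. Its log2 difference was -1.03 (SE 0.417, adjusted p = 0.996 in edgeR), and without mantled replicate 3 it was -1.60. Among members with higher values in mantled carpel the smallest p belonged to p5_sc00332_cds_16, with a mean of 16.5 ± 2.88 CPM (SD, n = 3 palms) in mantled and 6.78 ± 1.85 CPM (SD, n = 2 palms) in normal carpel and no overlap. Its log2 difference was 1.28 (SE 0.7), and the p adjusted by edgeR was 0.996. Without normal replicate 2 the difference was 2.05. It was followed by maker-p5_sc00027-augustus-gene-48.42-mRNA-1:cds, whose mean was 26.8 ± 16.1 CPM (SD, n = 3) in mantled and 7.08 ± 9.41 CPM (SD, n = 2) in normal carpel, with a log2 difference of 1.8 (SE 1.01, adjusted p = 0.996 in edgeR). That difference was 0.90 without normal replicate 3 and 5.92 without normal replicates 1 and 2, fits that each leave 1 normal palm, and the carpel of normal palm 2 held 1 read. None of the 4 differences passed the threshold.

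**Figure D5:**
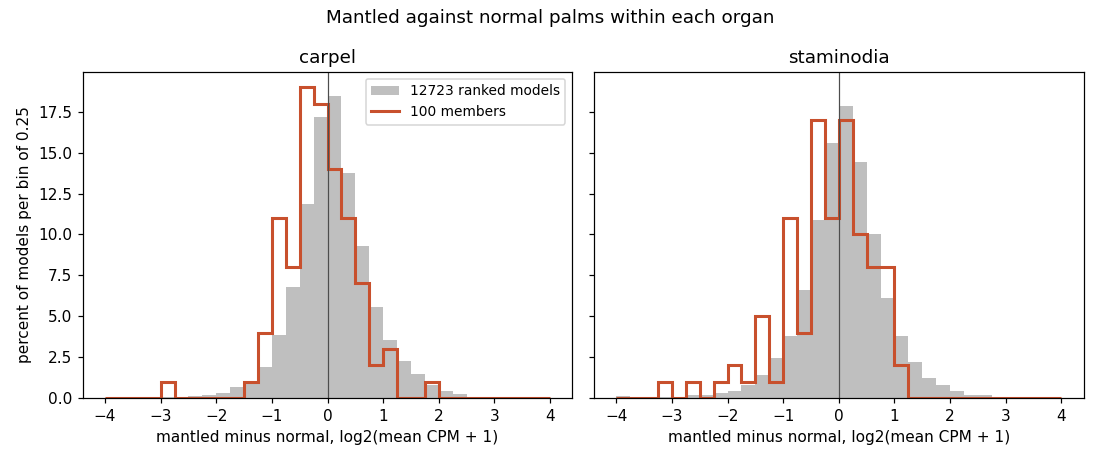
Distribution of the mantled minus normal difference of group means on the log2(mean CPM + 1) scale (x axis) within carpel (left) and staminodia (right), as percent of models per bin (y axis). Grey is the 12723 ranked models and the orange line the 100 members. The members' median is -0.21 in carpel and -0.14 in staminodia, against 0.08 and 0.10 for the ranked models.

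Within staminodia the phenotype contrast was used in part, because models lowest in normal staminodia had been left out, and it is given as a description. Of the members, 95 passed the filter on low counts and edgeR called 0 of them, against 0.0199% of 15050 models. An unadjusted p under 0.05 was found for 5 members, all lower in mantled staminodia (background 2.41% lower and 1.97% higher), and DESeq2 called 0 members. The fitted log2 difference had a median of -0.24 over these 95 against 0.05 over all models, and it was below 0 in 58 of 95 against 46.9% of all models. On mean CPM, 55 of 100 members were lower in mantled staminodia, against 42.8% of ranked models. All mantled staminodia lay below both normal staminodia in 12 members (8.87% of ranked models) and above them in 0 (9.96%), a direction that the rule largely closes. In 5 members all mantled palms lay below both normal palms in both organs, against 1.78% of ranked models.

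The smallest p in staminodia belonged to p5_sc00001_cds_1165, with 3 features. It stood at 106 and 72.4 CPM in normal and 33.1, 19.5 and 47.5 CPM in mantled staminodia, and the groups did not overlap. In carpel it was at 239 and 240 CPM in normal palms and at 60.2, 94.8 and 250 CPM in mantled palms, where mantled palm 3 lay above the normal palms. The log2 difference was -1.50 (SE 0.449, adjusted p = 0.781 in edgeR) in staminodia and -0.88 (SE 0.492, adjusted p = 0.996 in edgeR) in carpel. After it came p5_sc00053_cds_237, described above, with an adjusted p of 0.878 in edgeR. Among members with higher values in mantled staminodia, p5_sc00452_cds_11 was at 17.4, 48.8 and 10.3 CPM against 13 CPM in both normal palms. Its log2 difference of 0.89 (SE 0.753, adjusted p = 1 in edgeR) was 0.02 without mantled replicate 2. For maker-p5_sc00090-augustus-gene-19.34-mRNA-1:cds the values were 27.7, 23.0 and 6.28 CPM against 11.8 and 7.89 CPM, with mantled palm 3 below both normal palms, a log2 difference of 0.85 (SE 0.837, adjusted p = 1 in edgeR). Over the fits that leave out replicates this difference ran from 0.47, without mantled replicate 1, to 1.29, without mantled replicate 3.

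One member was called when a palm was left out. Without normal replicate 3, p5_sc00343_cds_30 had a staminodia log2 difference of -2.40 (adjusted p = 0.0322 in edgeR). That fit holds normal palm 1 as its only normal sample. The spread comes from the mantled palms and, because edgeR draws it toward a level shared by all models tested, from the other models. The lone palm is assumed to vary in the same way, so the call compares 1 normal palm with the mantled palms. With all palms the difference was -1.61 (SE 0.597, adjusted p = 1 in edgeR). Its staminodia were at 150 CPM in normal palm 1, 23.2 CPM in normal palm 2 and 27.1, 30.9 and 33.7 CPM in the mantled palms, so normal palm 1 alone stood apart. In carpel it was at 352, 169, 85.1, 65.3 and 249 CPM, and this member was named after its values were seen.

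The feature counts within a model give a view that the sum hides. Of the members, 40 had 1 feature and 60 had several, up to 25, with a median of 2 features as among the ranked models. In 50 members 2 or more features reached a mean of 1 CPM, 163 features in all. The mean organ difference was above 0 in 148 of these features, and in 40 of the 50 members it was above 0 in every such feature. In single palms the features were less even. Of the 163, 53 were higher in carpel in all 5 palms, and 3 of 50 members had only such features. The sums of these features chose the members, so the choice favours positive differences and the counts are a description. Shares among the features of other models were not counted.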

How the data were processed

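TopHat2 2.0.13, HTSeq 0.6.1p1, CASAVA 1.8.2, cutadapt and Trim Galore are listed in the submitters' processing notes. The values deposited by the authors are raw counts, with 1 table of 100342 features for each library. The sources used here give no build, annotation or strand setting, so overlapping and antisense genes may share reads, and near-identical copies may be undercounted. Rows of reads not assigned to a feature for any reason (67.8% to 74.7% of all rows' reads) were left out. Reads listed as lying in no feature made up 46.9% to 50.5%, and the remainder were unassigned for other reasons. Features whose IDs differ in a final part number were summed to gene models, a reading of the IDs that no annotation at hand could check.

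Models were filtered with filterByExpr (minimum count 10), scaled by TMM and fitted in R 4.3.3 by edgeR 4.0.16 (robust glmQLFit, glmQLFTest), with Benjamini-Hochberg adjustment over all models tested and a threshold of 0.05. The SE was obtained from the log2 difference and its F statistic, as |log2| / √F. DESeq2 1.42.0 was an alternative. Organs were paired by palm because the labels give both organs the same palm IDs. The edgeR fits were also run on simulated counts. These held no palm effect shared by both organs, so they do not check the pairing by palm. The members, lists and tests were chosen with earlier results of these data known. Named members are, by rule, the 2 highest scores, the 2 largest mean differences in each phenotype, the 2 of largest contrast between phenotypes in each direction, the 2 of smallest p on each side in carpel and in staminodia, and the 2 of highest mean carpel CPM. The groups hold 2 or 3 palms. The p-values rest on the spread between these palms, which the fits draw toward a level shared by all models tested.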

Additional observations from a re-analysis of the deposited data

How the results depend on the processing

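With all palms, edgeR called 0, 0 and 11 members in the carpel, staminodia and organ contrasts, and 0, 3 and 32 of all models. Without a filter on low counts, members were 21 of the 75 models called higher in carpel (23209 tested), and with DESeq2 19 of 62 (16800 tested). They were 18 of 37 when libraries were not summed by palm (16135 tested) and 2 of 2 with no replicate block (16800 tested). Nothing is read from these counts of the organ contrast, which the rule used. Leaving out replicates (normal replicates 1 and 2 also together) gave 2 to 12 members there, 0 to 1 in staminodia and 0 in carpel. Over all models, calls numbered 24 in carpel, 73 in staminodia and 184 between organs without a filter, and 4, 48 and 206 with DESeq2. Libraries not summed by palm gave 17 in staminodia and 98 between organs, features not summed gave 9 in staminodia, and no replicate block gave 2 between organs. With replicates left out the ranges were 0 to 5, 0 to 32 and 3 to 64.

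The list itself depended on the settings. Of the 100 members, 66 were kept with a minimum mean of 2 CPM, 28 when the mean of the 5 palms replaced the smallest, and 46 had a feature among the 100 highest when features were not summed. Leaving out replicates kept 43 to 73. With a pseudocount of 0.5 or 5, a minimum of 10 CPM, TMM factors, or the models lowest in normal staminodia kept in, 76 to 95 were kept. The cause of these changes was not tested. Over the alternatives, 0 of the named log2 differences changed sign in the 3 fits. The named carpel differences had adjusted p-values of 0.115 to 1 in edgeR and DESeq2, and the named staminodia differences 0.169 to 1. Low staminodia counts limit the precision, since 52 members had 10 reads or more in every sum.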

Other observations

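The members were spread over 76 scaffolds. Of these, 17 held 2 or more members, 41 members in all, and scaffold p5_sc00084 held the most, 5. Within 5 model numbers of each other on a scaffold there was 1 pair of members, as there was 1 pair among the 100 models ranked highest for staminodia over carpel. That model numbers follow position is assumed from the IDs. The pair, named after its values were seen, is maker-p5_sc00084-augustus-gene-22.67-mRNA-1:cds and maker-p5_sc00084-augustus-gene-22.68-mRNA-1:cds. In the palm order of the report, normal palms 1 and 2 before mantled palms 1, 2 and 3, the first stood at 219, 32, 16, 4.69 and 75.6 CPM in staminodia and at 333, 75.3, 42.2, 50.5 and 264 CPM in carpel. The second stood at 4.26, 2.32, 3.34, 0.391 and 19.3 CPM in staminodia and at 20.3, 15.3, 7.44, 7.07 and 26.9 CPM in carpel. Mantled palm 2 had the lowest staminodia value of both models, and their order over the other palms differed.

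Of the members, 65 had a numbered ID, and 19 ranked models that are not members stood next to one of these in number. Of the 19, 3 were higher in carpel in every palm (15.8%, against 6.21% of all ranked models with numbered IDs) and 12 had a mean difference above 0 (63.2% against 53.3%).

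By the form of the ID, 26 members came from the maker augustus series (20.9% of ranked models), 8 from the maker snap series (12.6%), and 0 from the augustus_masked series (3.18%), which held 9 of the 100 models ranked highest for staminodia over carpel.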
